A study of Mus musculus with 2 samples.

Results

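The immunoglobulin heavy variable (Ighv) genes encode the antigen-binding front part of the antibody heavy chain. The 183 genes of the 56980 in the count tables whose symbol starts with Ighv were followed in single cells of mouse small intestine, with 1 library labelled model and 1 labelled control. The series title names CB001, simulated microgravity and radiation. The labels do not say which of these the model library received, and they give no strain, age or number of animals for either library. Mesentery and Peyer's patches had been removed before digestion. With 1 library per group, every interval printed is an exact 95% counting interval over cells or molecules, a limit beside a count of 0 is 3 counts of the total, and no difference between the libraries has a replicate check.

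A developing B cell joins 1 Ighv gene to a diversity and a joining segment, and all its descendants carry that choice, so the Ighv gene transcribed in a plasma cell marks its lineage. Plasma cells are the antibody-secreting end stage, and those of the gut wall secrete mainly IgA joined into dimers by the J chain. RefSeq (assembly GRCm38.p6) lists all 183 genes in a single cluster on chromosome 12, 120 as functional V segments and 63 as pseudogenes, with the heavy constant genes at one end. Many Ighv genes are near copies of each other, and the number right after Ighv gives the family.

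Germline coding sequences of 5 genes on which the results turn are shown, because near copies limit how far a short read can tell the genes apart. Each is the last 240 bases of the GENCODE M21 coding sequence (build GRCm38, coding strand, 5′ to 3′), and capitals mark bases that differ from the gene's nearest relative among the Ighv genes. Ighv1-64 led 21 model cells and Ighv1-9 the most control cells of the wider set below, at 10 Ighv molecules or more per cell. Ighv1-19 led 9 control cells and 1 model cell there, and Ighv3-6 was frequent in both libraries. Ighv4-1 had the most molecules per cell among genes leading at least 3 cells.
Ighv1-64: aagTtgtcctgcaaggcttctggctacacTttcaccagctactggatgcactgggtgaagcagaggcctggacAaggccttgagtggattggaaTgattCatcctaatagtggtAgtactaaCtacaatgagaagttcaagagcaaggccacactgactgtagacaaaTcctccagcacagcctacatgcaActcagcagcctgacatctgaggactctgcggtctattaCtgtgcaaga
Ighv3-6: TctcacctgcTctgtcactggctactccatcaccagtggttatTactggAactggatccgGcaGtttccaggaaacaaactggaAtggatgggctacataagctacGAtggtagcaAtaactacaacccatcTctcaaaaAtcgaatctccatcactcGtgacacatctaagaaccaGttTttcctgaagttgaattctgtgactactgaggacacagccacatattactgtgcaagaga
Ighv4-1: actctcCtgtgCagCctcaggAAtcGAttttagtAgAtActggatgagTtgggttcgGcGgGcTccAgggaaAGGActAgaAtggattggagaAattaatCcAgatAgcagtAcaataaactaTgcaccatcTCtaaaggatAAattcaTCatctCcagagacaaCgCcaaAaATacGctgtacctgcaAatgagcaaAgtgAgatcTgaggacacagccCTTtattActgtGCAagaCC
Ighv1-9: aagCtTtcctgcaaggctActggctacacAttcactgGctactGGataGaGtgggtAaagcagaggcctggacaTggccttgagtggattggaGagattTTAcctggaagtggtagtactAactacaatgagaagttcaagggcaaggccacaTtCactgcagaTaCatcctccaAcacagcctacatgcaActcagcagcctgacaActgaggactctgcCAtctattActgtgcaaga
Ighv1-19: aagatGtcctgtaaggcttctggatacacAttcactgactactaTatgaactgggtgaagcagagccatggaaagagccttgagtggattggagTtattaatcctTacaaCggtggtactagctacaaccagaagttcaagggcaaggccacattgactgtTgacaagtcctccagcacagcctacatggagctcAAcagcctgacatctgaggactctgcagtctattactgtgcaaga
Ighv1-64 was 95.4% identical to Ighv1-72, and Ighv1-19 was 96.3% identical to Ighv1-26. Ighv3-6 was 91.7% identical to Ighv3-1, Ighv1-9 was 90.9% identical to Ighv1-77, and Ighv4-1 stood furthest apart, at 76.2% identity to Ighv11-2. Of the 69 genes that led a plasma cell in either library, 33 had a relative at 95% identity or more. The median identity to the nearest relative was 94.9% (range 73.8% to 99.1%). How reads matching several such genes were counted is not given in the sources used here, so use of genes with a near copy, Ighv1-64 and Ighv1-19 among them, is uncertain between the copies.

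The model library held 11468 barcodes and 76701215 UMIs (unique molecular identifiers, each marking 1 captured RNA molecule), and the control library 10259 barcodes and 61370270 UMIs. Cells were barcodes with at least 500 UMIs and 200 genes and no more than 25% of UMIs from mitochondria, 7913 in the model library and 7329 in the control library. Mitochondrial UMIs made up a median of 5.38% in model and 10.8% in control cells. The libraries shared 28 barcode sequences, of which 1 model and 0 control barcodes were plasma cells with an Mzb1 UMI.

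A plasma cell was a kept barcode with at least 1 UMI of Mzb1, a chaperone of antibody assembly, and at least 10% of its UMIs on Igha, Igkc and Jchain, the IgA heavy chain, kappa light chain and J chain. This held for 80 model and 87 control cells. Other plasma cell genes stood beside the rule: Xbp1, a secretory regulator, had a UMI in all 80 and all 87 cells, and Sdc1, the surface marker syndecan-1, in 72.5% of model and 80.5% of control cells. Pax5, a regulator that plasma cells switch off, had 0 UMIs in both. Epcam, an epithelial surface gene, had a UMI in 72.5% of model and 65.5% of control plasma cells. Free RNA and a second cell in the droplet cannot be told apart there.

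Mzb1 itself was barely captured, with 105 UMIs in 88 kept model cells and 120 UMIs in 94 kept control cells. Of kept barcodes with at least 10% immunoglobulin UMIs, only 80 of 677 (11.8%) in the model library and 87 of 593 (14.7%) in the control library carried an Mzb1 UMI. At the immunoglobulin threshold the nearest cells inside lay at 11.0% and 12.6% in the model library and at 13.7% and 14.0% in the control library. The nearest Mzb1-positive cells outside lay at 3.14% and 1.33% in the model library and at 6.79% and 5.78% in the control library. After this was seen, a wider set was added that needs no Mzb1 UMI but at least 2 of 8 other plasma cell genes (Xbp1, Sdc1, Prdm1, Irf4, Tnfrsf17, Derl3, Fkbp11 and Eaf2). It held 624 model and 470 control cells, of which 65.2% and 63.4% had an Epcam UMI. Some of the 8 genes were also common in epithelial cells. Xbp1 had a UMI in 67.1% of model and 52.3% of control epithelial cells, and Sdc1 in 30.6% and 20.8%. Irf4, Tnfrsf17, Derl3 and Eaf2 had one in 2.52% or less, and Prdm1 and Fkbp11 lay between. The text names the set behind each value.

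Of the 183 Ighv genes, 90 had a UMI anywhere in the model library and 82 in the control library, 76 had one in both, and 87 had none in either. Among functional genes, 34 had no UMI in the model library and 41 in the control library. The 63 genes that RefSeq lists as pseudogenes contributed little. Of these, 4 had a UMI in the model library (139 UMIs) and 3 in the control library (57 UMIs). Ighv7-1 and Ighv7-3 held 18 and 118 of those model UMIs, and 3 and 52 of the control UMIs. GENCODE M21 gives both genes a coding sequence, so the 2 references differ on their type. In all, 6636 Ighv UMIs were counted in the model library and 5673 in the control library. Of those in kept barcodes, 6323 of 6555 in the model library and 5403 of 5625 in the control library lay in barcodes with at least 10% immunoglobulin UMIs.

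The summed Ighv level differed little between the libraries. It was 962 CPM (900 to 1028; UMIs scaled to a total of 1000000 per cell set) in model plasma cells and 998 (937 to 1062) in control plasma cells with an Mzb1 UMI. In the wider set it was 1072 (1046 to 1099) in the model library and 1218 (1185 to 1251) in the control library, a ratio of 0.880, with intervals that did not overlap. A model plasma cell with Mzb1 had a median of 8 Ighv UMIs (quartiles 4 and 14, highest 73) and a control one 10 (5.5 and 15.5, highest 41). Median total UMIs of these cells were 10912 in the model library and 11119 in the control library.

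**Figure D1:**
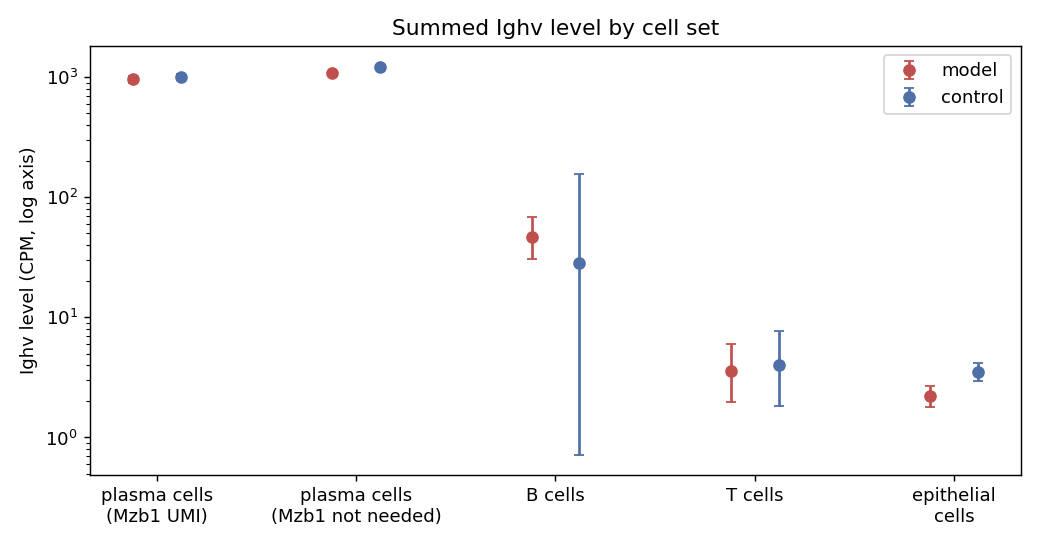
Summed Ighv level in CPM (vertical, log axis) by cell set, with model left of control in each set; points are single libraries and bars are exact 95% Poisson intervals. Both plasma cell sets lie between 962 and 1218, whereas B cells under 10% immunoglobulin lie at 46.8 in the model library and 28.2 in the control library, and T and epithelial cells at 4.02 or less.

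In plasma cells with at least 10 Ighv UMIs, nearly all Ighv molecules of a cell came from a single gene. The leading gene of a cell was the Ighv gene with most UMIs, called where the cell held at least 10 Ighv UMIs. With an Mzb1 UMI, 37 of 80 model and 44 of 87 control cells had one; the remaining 43 in each library held fewer than 10 Ighv UMIs, and none was tied. The median share of a cell's Ighv UMIs on its leading gene was 100% in both libraries. All Ighv UMIs lay on the leading gene in 30 of 37 model cells (81.1%, 64.8% to 92.0%) and in 36 of 44 control cells (81.8%, 67.3% to 91.8%). The wider set gave 195 of 234 model cells (83.3%, 77.9% to 87.9%) and 156 of 191 control cells (81.7%, 75.4% to 86.9%). In that set 390 of 624 model and 279 of 470 control cells held fewer than 10 Ighv UMIs and were left out.

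A second Ighv gene with at least 20% of the cell's Ighv UMIs was found in 4 of 234 model cells (1.71%) and 6 of 191 control cells (3.14%) of the wider set. Of cells with an Mzb1 UMI, 0 of 37 model cells and 5 of 44 control cells (11.4%, 3.79% to 24.6%) had one. In the model library the strongest such cell held 26 UMIs of Ighv1-53 and 12 of Ighv3-6. In the control library a cell held 20 UMIs of Ighv5-4 and 15 of Ighv1-18, and another 19 UMIs of Ighv1-18 and 9 of Ighv8-8. The 2 genes were of different families in 5 of these 10 cells and of 1 family in 5, among them the near copies Ighv1-26 and Ighv1-19 (8 and 2 UMIs) in a model cell. Whether such droplets held a second cell was not tested.

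Leading genes were spread over many members of the cluster. In cells with an Mzb1 UMI, 37 model cells were led by 25 genes, 16 of them leading a single cell, and 44 control cells by 26 genes, 18 of them leading a single cell. At the same number of 37 cells, 25 genes led in the model library and 23.1 would be met in the control library. The most frequent leading gene held 4 of 37 model cells (Ighv3-6, 10.8%, 3.03% to 25.4%) and 5 of 44 control cells (Ighv1-19, 11.4%, 3.79% to 24.6%). The 10 most frequent genes led 22 model cells (59.5%, 42.1% to 75.2%) and 28 control cells (63.6%, 47.8% to 77.6%). The most frequent genes were picked in these same cells, so such shares are descriptions, and their intervals do not cover the picking.

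Without the Mzb1 condition, 234 model cells were led by 55 genes and 191 control cells by 57 genes. At 191 cells in each library, 51.6 genes would be met in the model library and 57 led in the control library. Ighv1-64 and Ighv3-6 each led 21 model cells (8.97%, 5.64% to 13.4%), and Ighv1-9 led 15 control cells (7.85%, 4.46% to 12.6%). The 10 most frequent genes led 120 model cells (51.3%, 44.7% to 57.8%) and 87 control cells (45.5%, 38.3% to 52.9%). Their intervals overlapped.

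**Figure D2:**
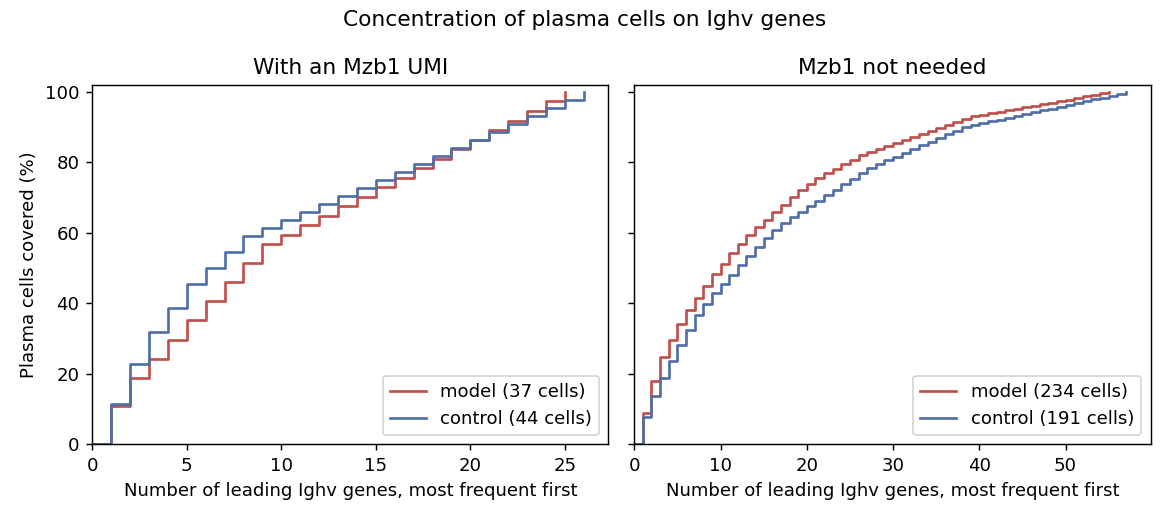
Share of plasma cells covered (vertical, %) by the leading Ighv genes taken from the most frequent on (horizontal, number of genes), for cells with an Mzb1 UMI (left panel) and the wider set (right panel); each line is 1 library. After 10 genes the model line stands at 59.5% and the control line at 63.6% on the left, and at 51.3% and 45.5% on the right, so the lines change places.

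The effective number of leading genes is the number of equally used genes giving the same chance for 2 cells to share their leading gene. It was 41.6 in model and 27.0 in control cells with an Mzb1 UMI, a log2 ratio of 0.62. These values exceeded the 25 and 26 genes seen to lead, and 41.6 also exceeded the 37 model cells behind it. With so few cells sharing a gene they are rough estimates, and no interval was computed. In the wider set the effective number was 28.9 in the model library and 38.1 in the control library, a log2 ratio of −0.40. The order of the libraries thus turned with the cell set. With 3 instead of 10 Ighv UMIs needed in the wider set, 498 model cells gave 33.9 and 355 control cells 36.0. Without cells carrying an Epcam UMI, the wider set gave 43.8 in 68 model cells and 39.8 in 51 control cells. No direction of concentration is therefore given.

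Within the wider set, the genes at the top of the libraries' lists differed. Ighv1-64 led 21 model and 5 control cells and summed to 526 model and 111 control UMIs. Ighv3-6 led 21 model and 9 control cells. Ighv1-78 led 16 model cells (6.84%, 3.96% to 10.9%) and 2 control cells (1.05%, 0.127% to 3.73%). Of the 69 genes that led any cell, Ighv1-78 was the one whose intervals did not overlap between the libraries. Of its model cells, 5 paired it with the kappa variable gene Igkv14-111 and 5 with Igkv2-109. Whether these were cells of 1 clone was not tested, and the intervals take each cell as separate. Ighv1-75 led 11 model and 3 control cells, and Ighv1-76 led 11 model and 6 control cells. Ighv1-53 led 9 model cells and 0 of 191 control cells, for which 3 counts would be 1.57%, although 7 control cells held a UMI of it. Ighv1-39 led 8 model and 1 control cells.

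Other genes led more control cells. Ighv1-9 led 8 model and 15 control cells. Ighv1-55 led 2 model cells (0.855%, 0.104% to 3.05%) and 11 control cells (5.76%, 2.91% to 10.1%). Ighv1-19 led 1 model and 9 control cells, with 23 model and 237 control UMIs. Ighv2-9-1 led 3 model and 8 control cells. Ighv2-6 led 0 of 234 model cells, for which 3 counts would be 1.28%, and 5 control cells. The intervals of each of these 5 genes overlapped between the libraries. Ighv1-82 (7 model and 10 control cells), Ighv1-26 (5 and 8), Ighv8-8 (2 and 6) and Ighv1-18 (5 and 5) completed the list of 10 in the control library. The order of genes moved with the number of Ighv UMIs needed. At 3 instead of 10, Ighv1-26 led the most control cells (26, beside 23 for Ighv1-9). In the model library Ighv3-6 then led 34 cells, Ighv1-64 and Ighv1-26 led 32 each and Ighv1-18 led 26. Ighv1-53 led 16 model and 5 control cells at that limit.

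**Figure D3:**
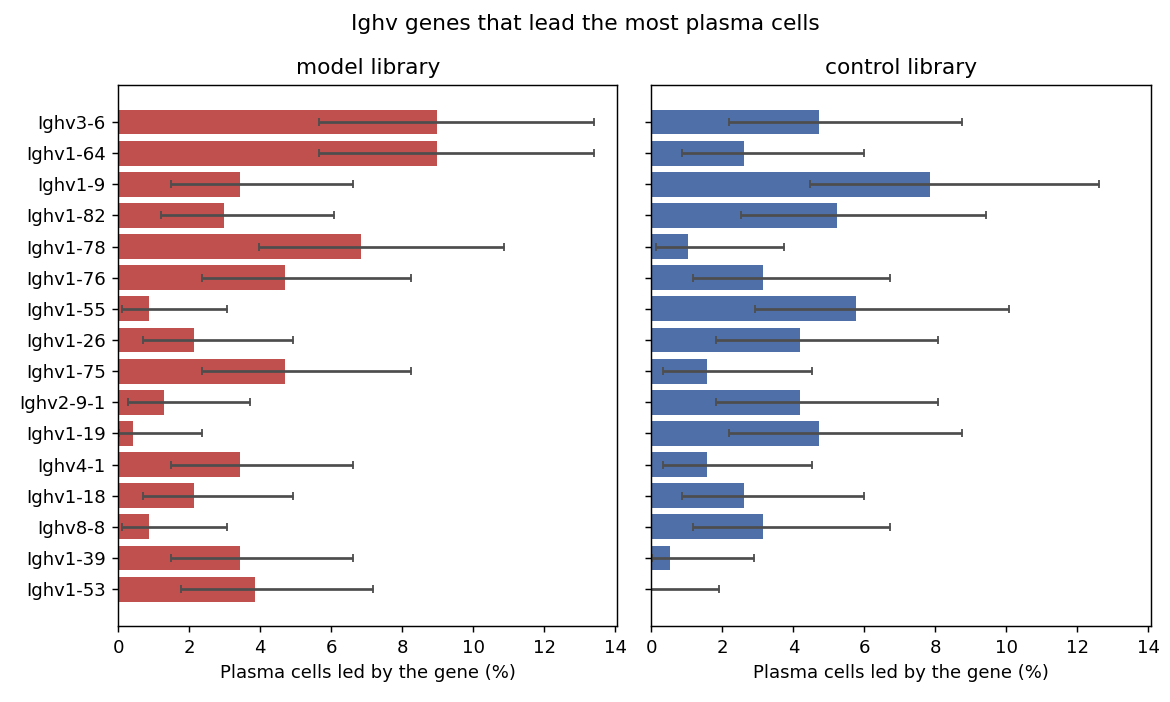
Share of plasma cells of the wider set led by each of the 16 Ighv genes among the 10 most frequent in either library (horizontal, %), model panel left of control panel; bars are single libraries of 234 and 191 cells and whiskers exact 95% binomial intervals. Ighv1-78 stands at 6.84% in the model library and 1.05% in the control library, and the whiskers of each of the other 15 genes overlap between panels.

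The order in cells with an Mzb1 UMI was partly different. Ighv1-64 led 2 model and 3 control cells there, and Ighv3-6 led 4 model and 5 control cells, so neither had the model lead seen in the wider set. Ighv1-19 led 0 of 37 model cells, for which 3 counts would be 8.11%, and 5 of 44 control cells, with 0 model and 131 control UMIs. Ighv1-55 led 0 model and 3 control cells. Ighv4-1 led 3 model cells and 0 of 44 control cells, for which 3 counts would be 6.82%. Ighv1-78 led 2 model and 1 control cells, and Ighv9-3 and Ighv1-39 each led 2 model and 0 control cells. None of the 40 genes leading a cell here had intervals that did not overlap.

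Most plasma cells of the wider set were led by genes that also led cells of the other library, but with an Mzb1 UMI about as many were not. Of the wider set's leading genes, 43 were shared, which was 78.2% of the model list and 75.4% of the control list. Shared genes led 207 of 234 model and 165 of 191 control cells. The lists of 10 had 4 genes in common: Ighv1-9, Ighv1-76, Ighv1-82 and Ighv3-6. The last place was tied in both libraries and settled by summed UMIs. In the control library Ighv1-18 took it and Ighv1-64, also leading 5 cells, did not. In the model library Ighv1-82 took it and Ighv9-3, also leading 7 cells, did not. The overlap of the lists and the shares below depend on this choice. The 10 genes of the control library led 65 model cells (27.8%), and the 10 genes of the model library led 54 control cells (28.3%). With an Mzb1 UMI, 11 leading genes were shared, 44.0% of the model list and 42.3% of the control list, and they led 19 of 37 model and 21 of 44 control cells.

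Ighv4-1 stood apart by molecules per cell rather than by number of cells. Its UMIs in the 8 model cells it led were 34, 42, 73, 73, 75, 104, 118 and 134, and in the 3 control cells 37, 122 and 190. All 226 other model cells had a median of 15 UMIs of their leading gene (highest 55), and the 188 other control cells a median of 16.5. Among the other genes leading at least 5 cells, medians ran from 10 to 22 over 18 genes in the model library and from 12 to 26.5 over 15 genes in the control library. A single control cell, led by Ighv1-84, held 324 UMIs of it, whereas the second control cell led by that gene held 16 and the model cell 14. Through these few cells Ighv4-1 made up 10.5% of the wider set's Ighv UMIs in the model library and 6.65% in the control library while leading 3.42% and 1.57% of cells. Summed UMIs therefore ranked the genes differently from numbers of cells. Ighv4-1 was singled out after its values were seen.

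**Figure D4:**
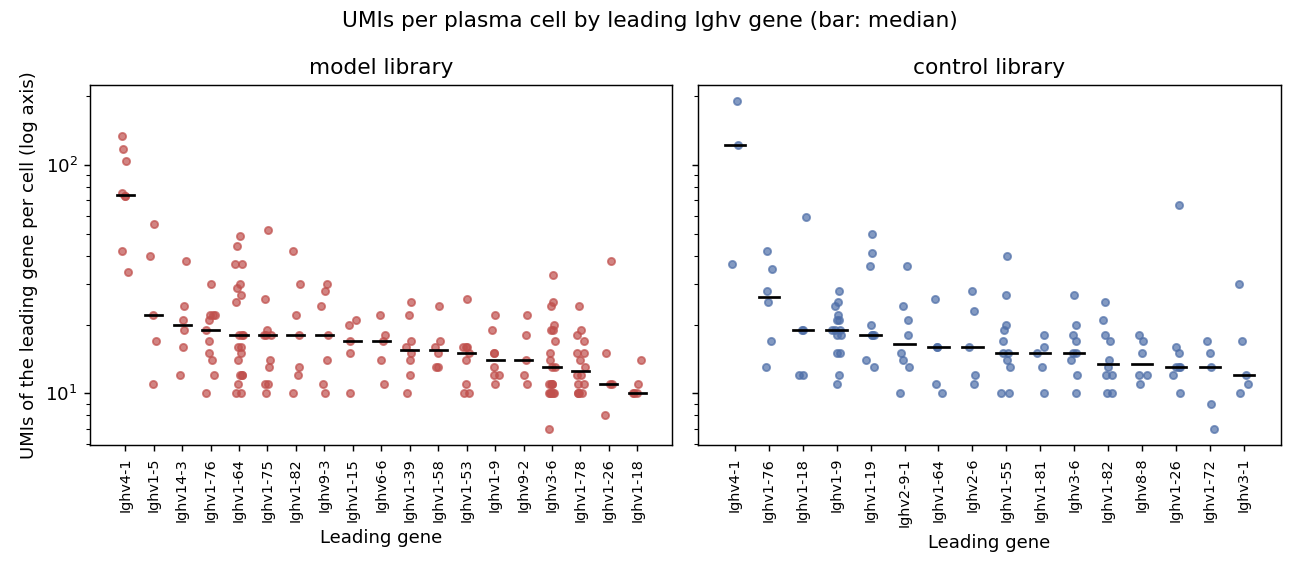
UMIs of the leading gene in each plasma cell of the wider set (vertical, log axis) for genes leading at least 5 cells, and Ighv4-1, ordered by median (horizontal), model panel left of control panel; points are cells and bars medians. Ighv4-1 lies at a median of 74 in the model library and 122 in the control library, above every other gene shown, whose medians end at 22 and 26.5.

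Counted by sums, many Ighv genes differed at least 2-fold between the libraries. In cells with an Mzb1 UMI, 33 Ighv genes had at least 20 pooled UMIs; 12 of them (36.4%) were at least 2-fold higher in the model library and 12 (36.4%) at least 2-fold lower. Over all genes measured in the same way, 7.69% were at least 2-fold higher in the model library (431 of 5603) and 2.86% lower (160). Of the 33 genes, 6 had no UMI in the model library and another 6 none in the control library, and these were set at 3 UMIs. The median log2 ratio was −0.57 over the 33 Ighv genes and 0.13 over all genes. Of 70 Ighv genes measured in the wider set, 20 (28.6%) were at least 2-fold higher and 29 (41.4%) lower in the model library, beside 3.24% and 2.63% of 10428 genes. The median log2 ratio was −0.42 over those 70 genes and 0.04 over all genes.

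These sums rested on few cells. The 3 cells with most UMIs of each gene held 826 of the 876 Ighv UMIs of model cells and 867 of the 992 of control cells with an Mzb1 UMI. Without them 2 Ighv genes still had 20 pooled UMIs, too few to count calls. Ighv4-1 had 149 model UMIs there, all in its top 3 cells, and 3 control UMIs. Ighv1-64 in the wider set was less narrow, with 130 of its 526 model UMIs in its top 3 cells and 35 model cells holding a UMI. Ighv1-19 had 127 of 237 control UMIs in its top 3 cells.

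By family in the wider set, Ighv1 led 147 of 234 model cells (62.8%, 56.3% to 69.0%) and 114 of 191 control cells (59.7%, 52.4% to 66.7%), while it holds 50.0% of the functional genes. With an Mzb1 UMI it led 21 of 37 model cells (56.8%, 39.5% to 72.9%) and 29 of 44 control cells (65.9%, 50.1% to 79.5%), the opposite order, and the intervals overlapped in both sets. Ighv2 led in the wider set 5 model cells (2.14%, 0.697% to 4.92%) and 19 control cells (9.95%, 6.10% to 15.1%). Of the 12 families leading any cell, Ighv2 was the one whose intervals did not overlap. With an Mzb1 UMI it led 1 of 37 model and 3 of 44 control cells, and those intervals overlapped. Ighv3 led 8.97% of model cells, all through Ighv3-6, and 8.38% of control cells through 4 genes in the wider set, and 10.8% of model and 13.6% of control cells with an Mzb1 UMI. In the wider set Ighv5 led 6.41% of model and 8.38% of control cells, Ighv8 1.28% and 4.19%, and Ighv9 5.13% and 2.62%. Families Ighv11, Ighv12, Ighv13 and Ighv16 led no cell in either library.

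Along the cluster, the 40 functional genes furthest from the constant genes led 106 model cells (45.3%, 38.8% to 51.9%) and 73 control cells (38.2%, 31.3% to 45.5%). The 40 nearest led 67 model cells (28.6%) and 61 control cells (31.9%), and the middle 40 led 56 cells in each library, 23.9% of model and 29.3% of control cells. Among cells with an Mzb1 UMI, the furthest stretch led 13 of 37 model cells (35.1%) and 17 of 44 control cells (38.6%), and the nearest 13 model cells (35.1%) and 13 control cells (29.5%), so the order of the libraries turned for both stretches. Intervals of each stretch overlapped between the libraries in the wider set. Ighv1-64, Ighv1-75, Ighv1-76 and Ighv1-78, prominent in the model library, lie in the furthest stretch. Genes that RefSeq lists as pseudogenes led 5 model cells and 1 control cell. These genes were Ighv7-1 and Ighv7-3, both with a coding sequence in GENCODE M21.

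**Figure D5:**
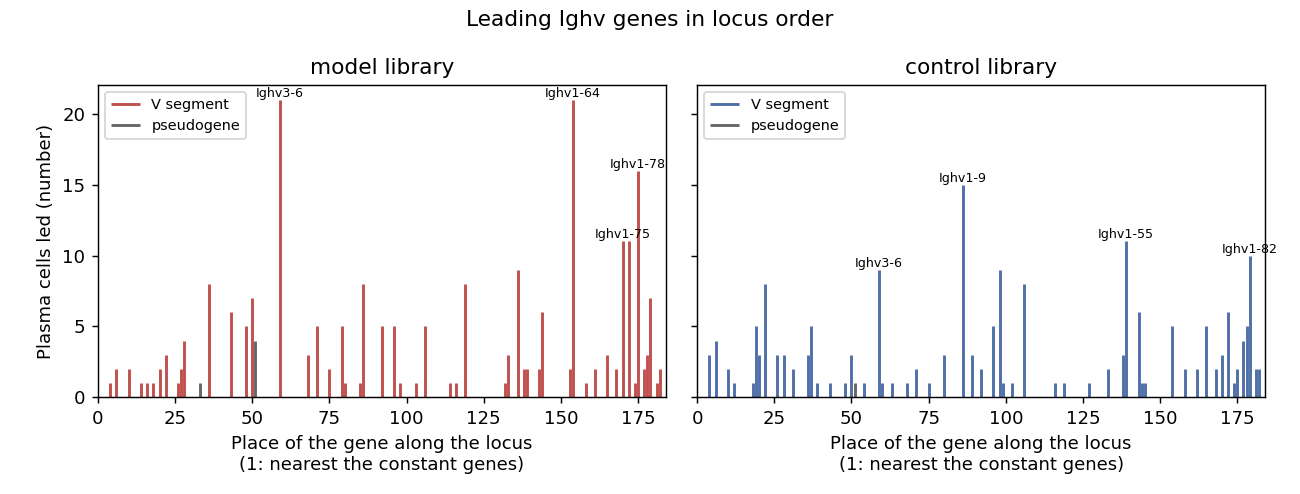
Number of plasma cells of the wider set led by each Ighv gene (vertical) against the gene's place in RefSeq order, 1 being nearest the heavy constant genes (horizontal), model panel left of control panel; each line is a gene. Leading genes occur all along the cluster, and the tallest lines are Ighv1-64 and Ighv3-6 at 21 model cells and Ighv1-9 at 15 control cells.

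Heavy constant genes, which are joined to the rearranged variable gene and set the isotype, were mainly Igha. Among wider-set cells with a leading Ighv gene, Igha had the most heavy constant UMIs in 229 of 234 model and 186 of 191 control cells. With an Mzb1 UMI it did so in 34 of 37 model and 41 of 44 control cells; Igha was part of the rule. The 3 other model cells were an Ighm cell led by Ighv4-1 (42 UMIs), an Ighg2b cell led by Ighv6-6 and an Ighg3 cell led by Ighv3-6. In the control library they were an Ighg2c cell led by Ighv3-3 and Ighg2b cells led by Ighv1-75 and Ighv1-72. IgA cells thus carried nearly all the leading genes counted above.

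Of 29 genes listed for antibody make-up and diversity, 15 had at least 20 pooled UMIs in cells with an Mzb1 UMI. The mu heavy chain Ighm (ratio 3.70) and Ighg3 (67.0) were at least 2-fold higher in the model library, and Ighg2b (0.426), Ighg2c (0.234) and the lambda constant gene Iglc3 (0.468) at least 2-fold lower, beside 7.69% of all genes higher and 2.86% lower. Without the Mzb1 condition 17 were measured, of which Ighg1 (12.2) and Ighg3 (17.4) were at least 2-fold higher and Ighg2b (0.308) and Iglc2 (8864 model and 16509 control UMIs) at least 2-fold lower, beside 3.24% and 2.63% of all genes. Ighm (1.76), Ighg2c (1.29) and Iglc3 (0.742) were within 2-fold there. Ighg3 was at 1902 model and 31 control UMIs in 80 and 87 cells, with 2 model cells led by it. Of the same cells Ighm led 1 model and 0 control cells, Ighg2b 2 and 3, and Ighg2c 1 and 2. In the wider set Ighg1 led 1 model and 0 control cells, Ighg3 3 and 0, and Ighg2b 9 and 7. The heavy constant ratios thus rested on few cells. The joining genes Ighj1 to Ighj4, the recombinase genes Rag1 and Rag2 and the polymerase gene Dntt had 0 UMIs in both sets and libraries. Pou2af1, the B cell coactivator of octamer-driven immunoglobulin promoters, had 303 model and 329 control UMIs.

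Light chains paired with the leading Ighv genes in many combinations. In the wider set, 208 model cells with a leading kappa variable gene held 152 pairs, and 176 control cells held 132 pairs. Cells in a pair met more than once were 87 of 208 in the model library (41.8%, 35.0% to 48.8%) and 70 of 176 in the control library (39.8%, 32.5% to 47.4%). The most frequent pairs were Ighv1-75 with Igkv10-96 in 7 model cells and Ighv1-19 with Igkv1-117 in 5 control cells. Of all pairs, 23 occurred in both libraries. Among cells with an Mzb1 UMI, 0 of 28 model cells and 3 of 40 control cells were in a repeated pair, and 0 pairs occurred in both libraries. A shared pair of genes does not by itself mark a clone, since the joined sequence is not in these counts.

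Cycling plasma cells, with UMIs of at least 2 of Mki67, Top2a, Birc5, Ube2c and Cdk1, numbered 95 model and 57 control cells in the wider set. A leading Ighv gene was called in 25 of the model cells over 17 genes and in 18 of the control cells over 14 genes. Ighv3-6 led 4 of the model cells and Ighv1-19 led 4 of the control cells. Of cells with an Mzb1 UMI, 26 model and 17 control cells were cycling, of which 7 model cells were led by 7 genes and 8 control cells by 8 genes. The leading genes of cycling cells were thus also spread over many genes in both libraries.

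B cells were barcodes outside the plasma cell rule with at least 3 of 12 B cell genes and no Cd3e or Epcam UMI, 264 in the model library and 67 in the control library. Those with at least 10% immunoglobulin UMIs, 67 model and 59 control barcodes, met the immunoglobulin share of the plasma cell rule but had no Mzb1 UMI. Sdc1 had a UMI in 54 model and 52 control B cells, and in 0 of those under 10% immunoglobulin. Pax5 had one in 117 model B cells and 1 control B cell, all under 10% immunoglobulin. By these genes most of the immunoglobulin-rich barcodes were plasma cells. Those with 2 of the 8 plasma cell genes are also counted in the wider set. At 2 Ighv UMIs or more, a leading gene was called in 64 model cells, 62 of them immunoglobulin-rich, and in 56 control cells, all immunoglobulin-rich. The effective numbers, 34.2 in the model library and 30.8 in the control library, therefore describe those barcodes and not resting B cells. Ighv1-26 led the most of them in both libraries, with 8 model and 7 control cells. In the model library Ighv1-64 and Ighv1-9 followed with 4 each and Ighv1-69 and Ighv3-6 with 3 each. In the control library Ighv8-8 followed with 6, Ighv1-18 with 3, and Ighv1-15 and Ighv1-22 with 2 each. The limit of 2 Ighv UMIs is lower than the 10 used for plasma cells. At 3 Ighv UMIs, Ighv1-26 led 32 model and 26 control cells of the wider plasma cell set, beside 5 and 8 at 10.

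B cells under 10% immunoglobulin numbered 197 in the model library and 8 in the control library. In the model library 73.6% had a UMI of Ms4a1, which encodes CD20, and 61.9% one of Ighd, the delta heavy chain of resting B cells. In the control library 2 of 8 had Ms4a1, 3 Cd79a, 7 Cd79b, 5 Bank1 and 4 Ighd. Their median immunoglobulin share was 0.130%, beside 0.737% in the 197 model cells. Control T and epithelial cells under 10% immunoglobulin had 0.149% and 0.157%. How many of the 8 were B cells is therefore uncertain, and 197 and 8 count barcodes that met the definition. An Ighv UMI was found in 24 of the 197 model cells (12.2%, 7.96% to 17.6%) and in 1 of the 8 control cells, at median depths of 2068 and 5386 UMIs. T cells under 10% immunoglobulin, which should lack Ighv, had one in 1.04% of 1349 model cells and 1.39% of 649 control cells, at median depths of 2682 and 3094 UMIs. Epithelial cells had one in 2.94% of 3192 model cells at a median of 8733 UMIs and in 3.08% of 3925 control cells at 4546.

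The Ighv level was 46.8 CPM (30.9 to 68.2) in model B cells and 28.2 (0.713 to 157) in the control ones. T cells had 3.61 in the model library and 4.02 in the control library, and epithelial cells 2.20 and 3.53. The model B cells stood above both free-RNA levels, and for the control ones 1 UMI gives no reading. The 27 Ighv UMIs of the model B cells fell on 21 genes. No cell held more than 2, and 23 cells had a gene ahead of the others, over 19 genes. Only Ighv1-72 and Ighv4-1 reached 2 UMIs in a cell, whereas a model plasma cell with Mzb1 held a median of 8. Ighv use of B cells was thus not measurable per cell at this depth, and it could not be set against that of plasma cells.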

How the data were processed

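The count tables hold raw UMI counts per gene and barcode as deposited by the authors. Cell Ranger 7.0.1 is named in the file headers, but 4.0, with build GRCm39, in the submitters' processing notes. The gene annotation, the handling of intronic reads and of reads that match several genes, and the kit chemistry are not stated in those sources. GRCm39 coordinates were not used. The 183 symbols were matched to RefSeq (GRCm38.p6) for gene type and order, and 113 of them to a GENCODE M21 coding sequence. No doublet caller was run. The members, lists and tests were chosen with earlier results of these data known. Analysis used Python 3.11.15, numpy 2.4.6, scipy 1.17.1, pandas 2.3.3 and Biopython 1.88.

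Barcodes needed 500 UMIs, 200 genes and at most 25% mitochondrial UMIs. With 1 library per group no test was made: shares have exact Clopper-Pearson and sums exact Poisson 95% intervals, which cover counting error only. Intervals of shares take each cell as separate, although clones were not called. A leading gene needed 10 Ighv UMIs in a plasma cell and 2 in a B cell. The effective number is the inverse Simpson index without replacement. Ratios compare summed plasma cell UMIs as CPM for genes with 20 pooled UMIs, with 0 set at 3 UMIs. Genes named are the 10 leading most plasma cells in each library, the 5 with the largest and the 5 with the smallest difference in share of cells led, and the 5 leading most B cells; others are named as chosen by their values. Ties in the lists of 10 were settled by the gene's summed UMIs. The plasma cell set without Mzb1, the exclusion of Epcam cells and the B cell limit on immunoglobulin were chosen after seeing the data. The steps were tested on simulated data. The simulation held no reads misplaced between near copies, and its gene sums varied by counting error only. It therefore does not cover near copies or sums that rest on few cells.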

Additional observations from a re-analysis of the deposited data

How the results depend on the processing

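No paired analysis was possible because each group has 1 library, and for the same reason no library could be left out. Under the alternatives planned (no barcode filter, a mitochondrial limit of 10%, an immunoglobulin share of 20%, no cycling cells, 3 Ighv UMIs or 80% on the leading gene), the log2 ratio of effective numbers stayed above 0, between 0.10 and 0.94. It reversed in the wider set, to −0.40 and, with 3 Ighv UMIs, to −0.088; the cause was not tested. The 10 leading genes then held 45.5% and 45.6% of control cells, and counts at least 2-fold higher and lower were 20 and 29. Without Epcam cells, 13 cells remained in each library. Effective numbers were 78 in the model library and 19.5 in the control library (log2 ratio 2.00). Both exceeded the 13 cells they came from and are rough. The 10 leading genes held 84.6% of model and 100% of control cells, and counts were 4 and 4. With no filter on low counts 19 Ighv genes were lower, with 50 pooled UMIs 3 were higher and 3 lower, and without the 3 top cells of each gene 0 were higher and 2 lower, of 2 still measured. In all, 104 recomputed values stayed, 14 moved and 2 reversed. To stay, shares had to lie within the interval of the reported value, and effective numbers, medians and counts within 1.5 times. Log2 ratios had to keep their sign. Many of the 104 had little room to move. Without a barcode filter, and at a mitochondrial limit of 10%, again 37 model and 44 control cells had a leading gene. The median share on the leading gene was 100% under every setting with a value. The tally is thus no measure of robustness. In cells with an Mzb1 UMI, thinning to 2000 UMIs and a need of 50 Ighv UMIs gave no value in either library, and neither did B cells with Ms4a1 and Cd79a or B cells under 10% immunoglobulin, since fewer than 10 cells had a leading gene. Ighv depth per cell, a median of 8 UMIs in the model library and 10 in the control library, left about as many plasma cells without a leading gene as with one.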
